A study of Mus musculus with 4 samples.

Results

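A set of 10 noncoding RNAs that act in the nucleus or as parts of catalytic RNA–protein complexes was followed in YUMM1.7 cells, a mouse melanoma line, between cell bodies and protrusions. They comprise the minor spliceosome RNAs *Rnu11* and *Rnu12*, the RNase P and RNase MRP RNAs *Rpph1* and *Rmrp*, the speckle and paraspeckle RNAs *Malat1* and *Neat1*, the telomerase RNA *Terc*, the 7SK RNA *Rn7sk*, the microRNA host transcript *Mir17hg* and the imprinted RNA *Meg3*. The 10 RNAs were chosen by name with their levels in this same contrast already known, so their own differences between the fractions are a description, and the counts past a threshold and the confidence intervals given for them are not tests of these RNAs. Of the 10, 9 are in the table of 16537 genes. *Rn7sk* is not in the table used here and was skipped, and 8 had a mean of at least 1 TPM (a length-scaled share of a library's transcripts) and entered the fit.

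The cells were wild type and otherwise unperturbed, and the samples differed only in fraction. Cells were plated on inserts with 1-µm pores whose lower face was coated with fibronectin, the cell bodies were scraped from the upper face, and the protrusions that had passed through the pores were recovered with the membrane. RNA-seq was made from rRNA-depleted total RNA, purified with a kit that keeps small RNAs, in 2 libraries per fraction, each from 6 inserts. All samples came from a single cell line, so the values describe that line.

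Most introns are removed by the major spliceosome, and a small class with distinct splice sites is removed by the minor spliceosome, in which U11 RNA pairs with the 5′ splice site and U12 RNA with the branch site. RNase P is the ribonucleoprotein enzyme that trims the 5′ ends of transfer RNA precursors, and RNase MRP, a related enzyme that shares most of its proteins, acts on ribosomal RNA precursors in the nucleolus. MALAT1 gathers in nuclear speckles, NEAT1 is the scaffold of paraspeckles, telomerase RNA carries the template for telomere repeats, and the primary transcript of the miR-17-92 cluster is cut in the nucleus into microRNA precursors.

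U11 and U12 RNA had the largest differences, and they are shown so that the stretches their functions rest on can be seen. All RNAs but the microRNAs are shown from GENCODE M21 transcripts of GRCm38, written 5′ to 3′ with T for U. In U11 the capitals mark AAAGG, complementary to part of the minor-class 5′ splice site, and AATTTTTTG, the Sm site where the Sm protein ring assembles. In U12 they mark GTAAGGAA, complementary to the branch site consensus without its bulged A, and AATTTTTG, the Sm site.
U11 RNA: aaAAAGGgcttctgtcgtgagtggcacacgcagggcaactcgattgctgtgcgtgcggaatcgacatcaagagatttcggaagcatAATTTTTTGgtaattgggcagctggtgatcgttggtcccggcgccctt
U12 RNA: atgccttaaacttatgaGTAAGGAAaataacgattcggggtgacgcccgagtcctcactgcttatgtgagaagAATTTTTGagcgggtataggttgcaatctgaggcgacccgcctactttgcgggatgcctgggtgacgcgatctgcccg
*Rnu11* lies at chr4:132270080-132270213 on the minus strand and *Rnu12* at chr15:83149644-83149794 on the plus strand. The U11 transcript has 134 bases, and the table's model of the gene has 108 and ends 27 bases short of its 5′ end, so the AAAGG at bases 3 to 7 lies outside the interval in which reads were counted. For U12 the table's model has 150 of 151 bases. Searched on the transcript strand, AAAGG occurs in 7.81% of the 1383 transcripts that GENCODE classes as snRNA, GTAAGGAA in 0.651%, AATTTTTTG in 1.08% and AATTTTTG in 1.37%, and no 2 of these matches overlap in U11 or U12.

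RNase P RNA and RNase MRP RNA were the most abundant members, and telomerase RNA, which was at a low level, is shown for its template. In RNase P RNA the capitals mark the longest run of letters that occurs more than once, a tandem repeat at bases 182 to 202 and 203 to 223, and in RNase MRP RNA the longest run shared with RNase P RNA. In telomerase RNA the capitals mark CTAACCC, complementary to the telomere repeat.
RNase P RNA, bases 1 to 300: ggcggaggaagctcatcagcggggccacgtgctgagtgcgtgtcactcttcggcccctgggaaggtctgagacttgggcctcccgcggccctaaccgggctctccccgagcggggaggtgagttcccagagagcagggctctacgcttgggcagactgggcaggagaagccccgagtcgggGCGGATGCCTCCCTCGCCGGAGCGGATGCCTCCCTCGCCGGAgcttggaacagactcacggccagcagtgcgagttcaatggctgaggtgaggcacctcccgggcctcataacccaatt
RNase MRP RNA: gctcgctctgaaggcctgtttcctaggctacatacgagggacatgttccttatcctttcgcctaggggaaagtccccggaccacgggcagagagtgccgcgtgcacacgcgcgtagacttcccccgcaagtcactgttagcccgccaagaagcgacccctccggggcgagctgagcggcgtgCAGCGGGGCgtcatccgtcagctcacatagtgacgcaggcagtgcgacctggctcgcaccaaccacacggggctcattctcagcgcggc
telomerase RNA, bases 1 to 60: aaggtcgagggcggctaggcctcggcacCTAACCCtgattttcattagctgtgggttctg
*Rpph1* lies at chr14:50807449-50807767 (319 bases), *Rmrp* at chr4:43492788-43493058 (271 bases) and *Terc* at chr3:96414437-96414859 (423 bases), all on the minus strand. The shared run of RNase P and RNase MRP RNA is CAGCGGGGC, 9 bases at bases 17 to 25 of the former and 183 to 191 of the latter. Whether a shared run of this length stands out for RNAs of their length was not tested.

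The 6 microRNA genes of the miR-17-92 cluster, listed in genomic order with the mature RNA of the arm usually studied, fall into 4 groups by seed (bases 2 to 8, in capitals, from RefSeq for GRCm38.p6). miR-17-5p and miR-20a-5p share AAAGUGC, miR-19a-3p and miR-19b-3p share GUGCAAA, and miR-18a-5p and miR-92a-3p each have a seed of their own.
miR-17-5p: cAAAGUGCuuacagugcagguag
miR-18a-5p: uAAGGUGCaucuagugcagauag
miR-19a-3p: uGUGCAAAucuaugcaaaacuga
miR-20a-5p: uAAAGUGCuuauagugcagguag
miR-19b-3p: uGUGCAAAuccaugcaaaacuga
miR-92a-3p: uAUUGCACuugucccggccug

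All 9 RNAs in the table were at lower TPM in both protrusion libraries than in both cell body libraries. The 8 that entered the fit had a median log2 fold change, with cell bodies as the base, of -0.90, against -0.07 for all 11400 genes tested, of which 56.9% were below 0. Groups placed in this order, without overlap, were found for 37% of all genes tested. Of the 8 RNAs, 5 passed the threshold (limma, adjusted p under 0.05) on the lower side, as did 485 genes or 4.25% of those tested, while 341 genes or 2.99% passed on the higher side. Since this contrast was known when the RNAs were chosen, nothing is read from these counts. With the replicate number as a block, 7 of the 8 passed, *Malat1* and *Terc* in addition. TPM is a share of a fraction's RNA, so less of a given RNA and more of the other RNAs in protrusions cannot be told apart.

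The libraries held 25854888 to 30994908 reads assigned to genes, recovered from the TPM values as whole numbers, and 14784 to 15123 genes had at least 1 read. Of 13 listed markers of the melanocyte lineage 8 are in the table, and 4 were above 1 TPM in each library. *Axl*, which is not particular to this lineage, was at 417 to 595 TPM and made up most of the sum of the 8, 439 to 616 TPM. *Sox9* was at 4.16 to 13.1 TPM, while *Pmel* was at 0 to 0.0696 and *Tyr* at 0.195 to 0.762 TPM. *Axl*, *Sox9*, *Mitf* and *S100b* entered the fit, and 0 of these 4 passed (limma). *Sox10*, *Tyrp1*, *Dct*, *Mlana* and *Kit* are not in the table used here. Fibroblast and keratinocyte mRNAs (8 of 12 in the table) summed to 478 to 706 TPM, mainly from *Col1a2* and *Pdgfra*. *Pdgfra* was at 192 and 245 TPM in cell bodies and 112 and 91.0 TPM in protrusions (log2 fold change -1.10, adjusted p = 0.0350 from limma). The 20 liver mRNAs summed to 86.3 TPM in replicate 1 of protrusions, where 17 of the 20 were above 1 TPM, and to 2.09 to 4.62 TPM in the other libraries. Their part in the results was not tested. With replicate 1 of protrusions left out 3 of the 8 RNAs passed the threshold, and with any other library left out 0 did, while 7 or 8 had an unadjusted p under 0.05 (limma).

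**Figure D1:**
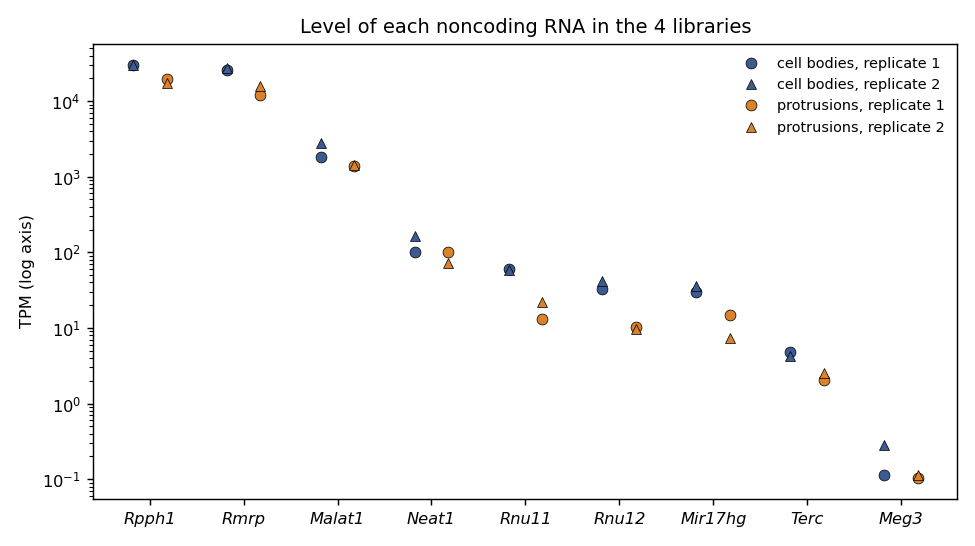
Level in TPM (log axis) of the 9 noncoding RNAs in each of the 4 libraries, cell bodies in blue and protrusions in orange, with circles for replicate 1 and triangles for replicate 2. *Rpph1* and *Rmrp* sit between 12163 and 30300.3 TPM, *Meg3* below 0.3 TPM, and both orange points lie below both blue points for every RNA.

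The RNAs of the minor spliceosome showed the largest differences of the 9. *Rnu11* was at 59.4 and 57.8 TPM in cell bodies and at 13.0 and 22.3 TPM in protrusions. Both protrusion libraries were low, with replicate 1 the lower, and the fractions did not overlap. The ratio of the means was 3.32 in favor of cell bodies, and the fitted log2 fold change was -1.75 (SE 0.25, 95% confidence interval -2.37 to -1.13). These levels rest on few reads, 99 and 81 in cell bodies and 19 and 41 in protrusions. For the 19 reads in replicate 1 of protrusions the exact Poisson interval (95%) is 11.4 to 29.7 reads, and it covers counting error only, since PCR duplicates are not separated.

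*Rnu12* was at 32.9 and 41.1 TPM in cell bodies and at 10.4 and 9.79 TPM in protrusions. The protrusion libraries lay close together, far below either cell body library. The means differed 3.67-fold, and the log2 fold change was -1.82 (SE 0.16, 95% confidence interval -2.21 to -1.42), from 76 and 80 reads in cell bodies and 21 and 25 in protrusions. Only 23 of the 11400 genes tested had a lower log2 fold change than *Rnu12*, and 27 had a lower one than *Rnu11*. U11 and U12 work together as a paired particle, and the ratio of their TPM was 1.81 and 1.41 in cell bodies and 1.26 and 2.28 in protrusions. The protrusion ratios lay on both sides of the cell body ratios, so the fractions overlapped in this measure.

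The mRNAs of the minor spliceosome proteins lay close to the middle of all genes, with a median log2 fold change of -0.10. Of 17 tested, 0 passed the threshold in either direction (limma), 2 had an unadjusted p under 0.05 on the lower side, and 2 were lower with the replicate block and 1 with voom on recovered reads. *Sf3b1*, which encodes a protein that contacts the branch site in both spliceosomes, was at 191 and 198 TPM in cell bodies and 139 and 109 TPM in protrusions, without overlap (log2 fold change -0.65, SE 0.14, adjusted p = 0.0530 from limma, 0.00696 with the replicate block). *Snrnp48*, which encodes a U11 particle protein, was at 34.8 and 36.8 TPM against 27.0 and 22.0 TPM (log2 fold change -0.55, adjusted p = 0.0760 from limma, 0.0302 with the replicate block).

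**Figure D2:**
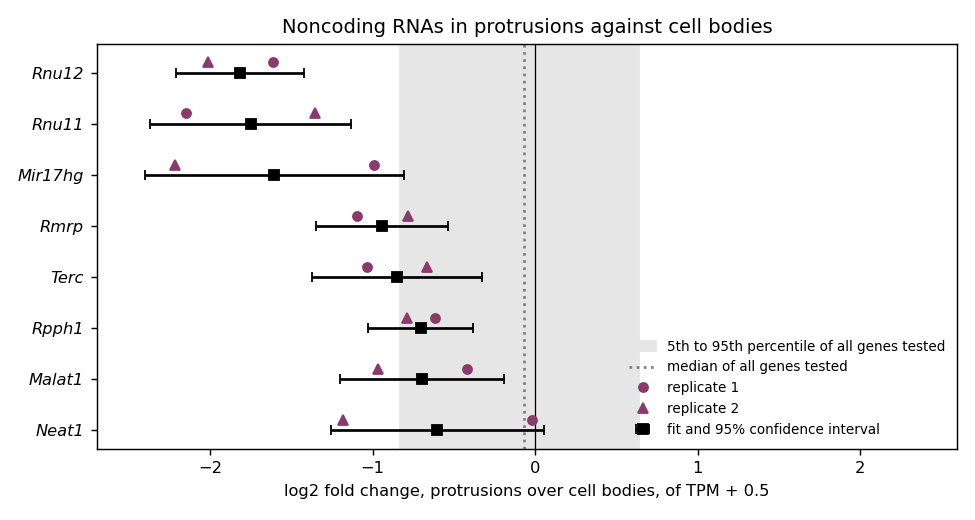
Difference between protrusions and cell bodies (log2 fold change, log2(TPM + 0.5) scale) for the 8 RNAs that entered the fit. Squares with bars are the fit with its 95% confidence interval, circles and triangles the ratio within replicates 1 and 2, the shading the range from -0.83 to 0.64 that holds all genes tested between the 5th and the 95th percentile, and the dotted line their median of -0.07. *Rnu12*, *Rnu11*, *Mir17hg*, *Rmrp* and *Terc* lie below the shading, and *Rpph1*, *Malat1* and *Neat1* inside it.

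*Rpph1*, the RNA of RNase P, had the highest TPM of all genes in each of the 4 libraries. It was at 30300.3 and 29855 TPM in cell bodies and at 19719 and 17253 TPM in protrusions. The cell body libraries differed little from each other, and both protrusion libraries were well below them. The means differed 1.63-fold, with a log2 fold change of -0.71 (SE 0.13, 95% confidence interval -1.03 to -0.38), and 86496 to 151859 reads stood behind each value.

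*Rmrp*, the RNA of RNase MRP, ranked 2 by TPM in 3 libraries and 3 in replicate 1 of protrusions. It was at 26046 and 27465 TPM in cell bodies and at 12163 and 15937 TPM in protrusions. Again no protrusion library reached the level of a cell body library. The means differed 1.90-fold, with a log2 fold change of -0.94 (SE 0.16, 95% confidence interval -1.35 to -0.54). Within each fraction *Rpph1* was above *Rmrp* without overlap. The ratio of *Rpph1* to *Rmrp* was 1.16 and 1.09 in cell bodies and 1.62 and 1.08 in protrusions, so replicate 1 of protrusions stood apart and replicate 2 did not.

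Because of these RNAs, the group takes a large share of the TPM. *Rpph1* and *Rmrp* together made up 5.63% and 5.73% of all TPM in cell bodies and 3.19% and 3.32% in protrusions. Counted in reads, in which length is not taken out, all 9 RNAs held 1.59% and 1.87% in cell bodies and 1.03% and 1.11% in protrusions. Rescaling TPM to the total without the members moved the median log2 fold change of all genes from -0.07 to -0.10.

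The mRNAs of the RNase P and RNase MRP proteins lay near the middle of all genes. Of 10 tested, 0 passed the threshold in either direction (limma), with a median log2 fold change of -0.14, while 2 had an unadjusted p under 0.05 on the lower side, 1 was lower with the replicate block and 0 with voom. *Rpp38* was at 20.6 and 23.7 TPM in cell bodies and 15.9 and 18.0 TPM in protrusions (log2 fold change -0.38, adjusted p = 0.153 from limma), and *Pop1*, which encodes the largest of these proteins, at 51.8 and 46.3 TPM against 41.8 and 29.3 TPM (log2 fold change -0.48, adjusted p = 0.158 from limma, 0.0398 with the replicate block). In neither case did the fractions overlap. The mRNAs of RNA polymerase III and of factors for its genes and for small nuclear RNA genes were likewise spread around 0. The list is not limited to factors that act at *Rpph1* and *Rmrp*. Of 20 mRNAs 0 passed (limma), with a median of -0.08, while 2 higher and 5 lower had an unadjusted p under 0.05, 1 was higher and 2 were lower with the replicate block, and the same counts were had with voom. *Brf1*, a subunit of the polymerase III loading factor TFIIIB, was at 16.0 and 15.7 TPM in cell bodies and 24.4 and 23.4 TPM in protrusions (log2 fold change 0.58, adjusted p = 0.0534 from limma, 0.0264 with the replicate block), and *Zfp143*, an activator of small nuclear RNA genes, at 22.7 and 24.8 TPM against 16.6 and 15.7 TPM (log2 fold change -0.54, adjusted p = 0.0651 from limma, 0.0366 with the replicate block).

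*Malat1* held the most reads of the 9 RNAs, 128886 to 251788 per library. It was at 1833 and 2781 TPM in cell bodies and at 1368 and 1420 TPM in protrusions. The cell body libraries were far apart, the protrusion libraries nearly level, and the fractions did not overlap. The means differed 1.65-fold, with a log2 fold change of -0.70 (SE 0.20, 95% confidence interval -1.20 to -0.19), and the log2 ratio was -0.42 in replicate 1 and -0.97 in replicate 2. Without replicate 2 of cell bodies the log2 fold change was -0.40. In rank by TPM the RNA was number 83 and 36 in cell bodies and number 121 and 118 in protrusions. Its interval is chr19:5795690-5802671 on the minus strand, 6982 bases.

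*Neat1* had the smallest difference of the 8 RNAs in the fit. It was at 101 and 164 TPM in cell bodies and at 99.4 and 72.2 TPM in protrusions. In replicate 1 the fractions were almost level, with a log2 ratio of -0.02, while in replicate 2 it was -1.18. The fitted log2 fold change was -0.60 (SE 0.27, 95% confidence interval -1.26 to 0.06), and 1326 of the 11400 genes tested were lower. The log2 fold change was -0.25 without replicate 2 and -0.95 without replicate 1 of cell bodies, and -0.37 without replicate 2 of protrusions. The table counts *Neat1* only over 3177 bases at chr19:5842302-5845478, the 5′ part of a GENCODE gene that reaches from 5824708 to 5845478. The short and the long isoform start together there, so they cannot be told apart, and only the long one forms paraspeckles. *Malat1*, its neighbor on the same chromosome, was 18.2 and 16.9 times as high in TPM in cell bodies and 13.8 and 19.7 times in protrusions, and the fractions overlapped in this ratio.

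The proteins that share these nuclear bodies were tested through their mRNAs. Of 20 nuclear speckle mRNAs 2 passed on the lower side and 0 on the higher (4 and 2 with the replicate block), with a median log2 fold change of -0.07. *Srsf5*, which encodes an SR splicing factor, was at 432 and 433 TPM in cell bodies and 278 and 255 TPM in protrusions (log2 fold change -0.70, SE 0.11, adjusted p = 0.0349 from limma). *Bclaf1*, which encodes an SR-related nuclear protein, was at 167 and 180 TPM against 117 and 104 TPM (log2 fold change -0.66, adjusted p = 0.0400 from limma). Both were lower in every protrusion library. Of 19 paraspeckle mRNAs 1 passed on the lower side and 0 on the higher (3 and 2 with the replicate block), with a median of -0.14. It was *Matr3*, which encodes the nuclear matrix protein matrin 3, at 286 and 302 TPM in cell bodies and 212 and 181 TPM in protrusions (log2 fold change -0.58, SE 0.12, adjusted p = 0.0488 from limma). *Sfpq*, which encodes a core paraspeckle protein, lay on the other side, at 137 and 139 TPM in cell bodies and 195 and 177 TPM in protrusions, and did not pass without the block (log2 fold change 0.43, adjusted p = 0.0679 from limma, 0.0290 with the replicate block).

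*Terc* was close to the lower limit of the fit. It was at 4.74 and 4.27 TPM in cell bodies and at 2.05 and 2.51 TPM in protrusions. Both protrusion libraries were lower, and the fractions did not overlap. The log2 fold change was -0.85 (SE 0.21, 95% confidence interval -1.37 to -0.33), from 29 and 22 reads in cell bodies and 11 and 17 in protrusions. For the 11 reads the exact Poisson interval (95%) is 5.49 to 19.7 reads. Of 8 mRNAs of telomerase proteins 0 passed in either direction (limma), with a median of -0.01, while 1 was higher at an unadjusted p under 0.05, with the replicate block and with voom. *Naf1*, an assembly factor of box H/ACA particles, was at 15.1 and 12.4 TPM in cell bodies and 21.9 and 19.1 TPM in protrusions (log2 fold change 0.56, adjusted p = 0.0874 from limma, 0.0337 with the replicate block), and *Parn*, a ribonuclease that trims the 3′ end of telomerase RNA, at 27.4 and 33.9 TPM against 23.7 and 25.5 TPM (log2 fold change -0.30, adjusted p = 0.234 from limma). *Tert*, the catalytic protein, was at 0.0216 to 0.154 TPM and was not tested.

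For 7SK RNA, which holds the elongation kinase P-TEFb inactive, only partners could be followed. Of 10 mRNAs 1 passed on the lower side and 0 on the higher (2 and 0 with the replicate block), with a median of -0.10. It was *Ccnt1*, which encodes the cyclin T1 subunit of P-TEFb, at 27.6 and 33.9 TPM in cell bodies and 18.7 and 16.3 TPM in protrusions (log2 fold change -0.79, SE 0.16, adjusted p = 0.0472 from limma). *Ccnt2*, which encodes the alternative cyclin T2, was at 27.1 and 29.7 TPM against 18.6 and 14.2 TPM (log2 fold change -0.79, adjusted p = 0.0515 from limma, 0.00979 with the replicate block). The kinase mRNA *Cdk9* was at 17.6 and 14.8 TPM against 18.3 and 19.3 TPM, a log2 fold change of 0.22 (adjusted p = 0.366 from limma).

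Over all 116 tested mRNAs listed for partners of these RNAs, RNA polymerase III factors included, 1 was higher and 4 were lower in protrusions. That is 0.862% and 3.45%, against 2.99% and 4.25% of all genes. Their median log2 fold change was -0.08, close to the -0.07 of all genes, and single mRNAs ranged from -0.79 to 0.81. With the replicate number as a block 9 were higher and 15 were lower. Without any 1 of the 4 libraries 0 passed in either direction. The lists of partners were written with earlier results of these data known.

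**Figure D3:**
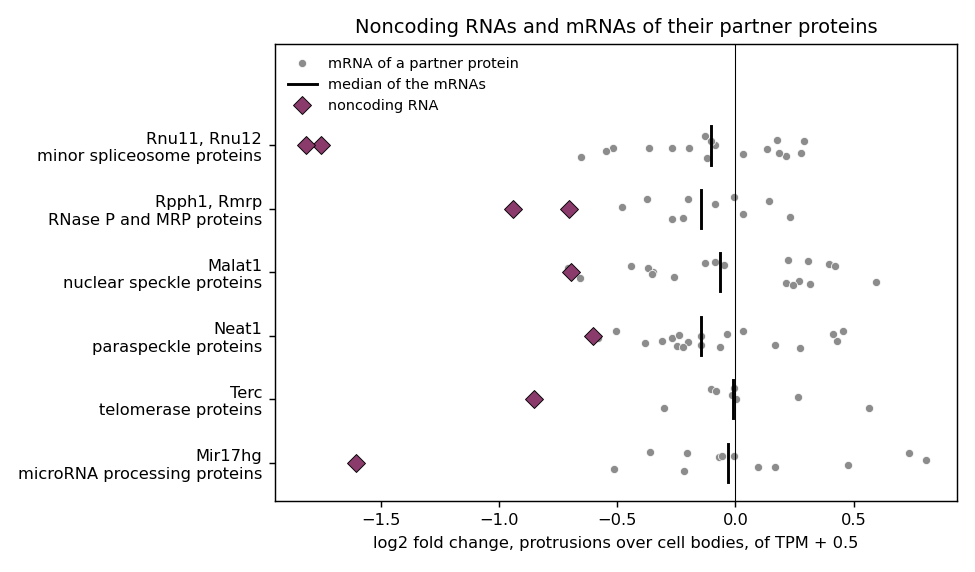
Protrusions against cell bodies, as a log2 fold change, for the noncoding RNAs (diamonds) and for each tested mRNA of their partner proteins (gray points), with the median of the mRNAs as a bar. *Rnu11*, *Rnu12*, *Rpph1*, *Rmrp*, *Terc* and *Mir17hg* lie to the left of every mRNA of their lists, while *Srsf5* and *Son* lie as far left as *Malat1*, and *Matr3* lies beside *Neat1*.

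*Mir17hg*, the host transcript of the miR-17-92 cluster, had the largest difference among the longer RNAs. It was at 30.2 and 35.9 TPM in cell bodies and at 14.9 and 7.31 TPM in protrusions. Replicate 2 of protrusions was the lowest, and the fractions did not overlap. The means differed 2.97-fold, with a log2 fold change of -1.61 (SE 0.32, 95% confidence interval -2.40 to -0.81), from 1089 and 1088 reads in cell bodies and 471 and 291 in protrusions. The replicates differed in size, with log2 ratios of -0.99 and -2.22. In level *Mir17hg* and *Rnu12* overlapped in both fractions.

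The table counts *Mir17hg* over 2339 bases at chr14:115044390-115046728, while the GENCODE transcript starts at 115042879. The genes *Mir17*, *Mir18*, *Mir19a* and *Mir20a* lie upstream of the table's interval, *Mir19b-1* overlaps its start, and *Mir92-1* lies inside it. The values of the first 4 of these genes therefore come from bases the value of the host did not use, though from the same libraries and the same primary transcript. Whether the reads in these short intervals come from the primary transcript, the hairpins or the mature microRNAs was not tested. The libraries were whole-transcriptome libraries from total RNA, so these values are not given as levels of mature microRNAs.

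Of the 6 genes of the cluster 2 were lower and 0 higher in protrusions (limma), with a median log2 fold change of -1.17. *Mir19a* was at 22.9 and 24.5 TPM in cell bodies and 9.04 and 12.2 TPM in protrusions, from 29, 26, 10 and 17 reads (log2 fold change -1.14, SE 0.18, adjusted p = 0.0366 from limma). *Mir19b-1*, which has the same seed, was at 8.94 and 9.75 TPM against 2.55 and 2.03 TPM, from 12, 11, 3 and 3 reads (log2 fold change -1.82, SE 0.20, adjusted p = 0.0336 from limma). The fractions did not overlap for either gene.

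The other 4 genes of the cluster did not pass without the block. *Mir20a* was at 21.2 and 13.0 TPM against 8.31 and 4.39 TPM (log2 fold change -1.38, adjusted p = 0.0680 from limma, 0.00103 with the replicate block), and *Mir18* at 13.5 and 12.9 TPM against 7.72 and 4.28 TPM (log2 fold change -1.13, adjusted p = 0.0635 from limma, 0.00532 with the replicate block). *Mir92-1* was at 13.0 and 11.6 TPM against 8.34 and 2.94 TPM (log2 fold change -1.21, adjusted p = 0.127 from limma, 0.00949 with the replicate block). These 3 had both protrusion libraries below both cell body libraries. *Mir17* was at 11.6 and 4.59 TPM in cell bodies and 9.70 and 4.19 TPM in protrusions, from 15, 5, 11 and 6 reads, and its fractions overlapped (log2 fold change -0.18, SE 0.52, adjusted p = 0.844 from limma). With 3 to 35 reads a library for these genes, the 95% confidence interval of *Mir17*, -1.46 to 1.10, holds the log2 fold change of *Mir20a*, with which it shares its seed. With the replicate block 5 of the 6 genes were lower, and with voom on recovered reads 0 were.

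**Figure D4:**
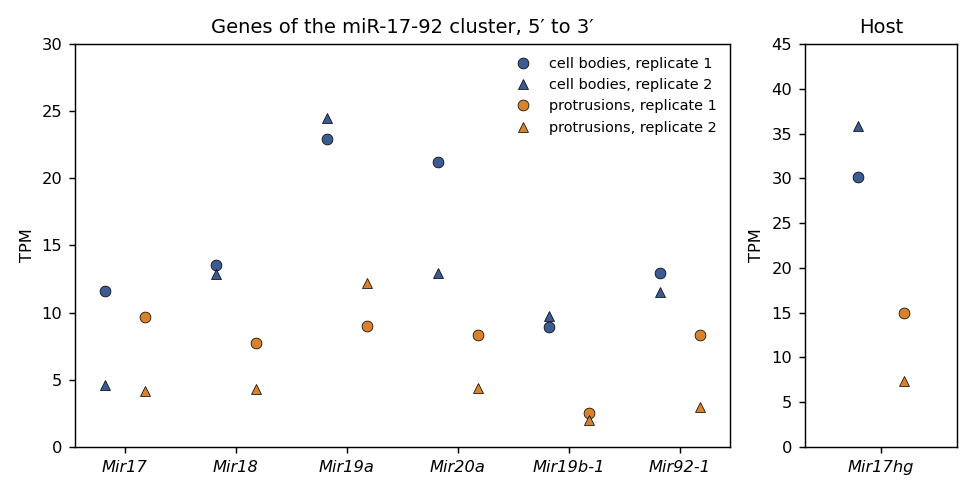
TPM of the 6 genes of the miR-17-92 cluster in genomic order (left) and of the host transcript *Mir17hg* (right, with an axis of its own), cell bodies in blue and protrusions in orange, with circles for replicate 1 and triangles for replicate 2. The fractions separate for every gene but *Mir17*, at 4.19 to 11.6 TPM.

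The proteins that process or load microRNAs were followed through their mRNAs. Of 12 tested 1 was higher and 0 were lower in protrusions (3 and 1 with the replicate block), with a median log2 fold change of -0.03. It was *Ago1*, which encodes an Argonaute protein that binds mature microRNAs, at 11.3 and 11.6 TPM in cell bodies and 18.7 and 20.2 TPM in protrusions (log2 fold change 0.74, SE 0.14, adjusted p = 0.0427 from limma). *Ago2* was at 14.6 and 21.9 TPM against 30.8 and 32.7 TPM and did not pass without the block (log2 fold change 0.81, SE 0.21, adjusted p = 0.0689 from limma, 0.00760 with the replicate block). *Ddx5*, a helicase of the nuclear microRNA-processing complex, was at 697 and 826 TPM against 557 and 507 TPM (log2 fold change -0.51, adjusted p = 0.0662 from limma, 0.0189 with the replicate block).

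*Meg3*, an imprinted long noncoding RNA, was barely detected. It was at 0.115 and 0.280 TPM in cell bodies and at 0.103 and 0.113 TPM in protrusions, from 23 and 47 reads and 18 and 25 reads over a transcript of 12956 bases. One cell body library stood above the other 3 libraries, which were nearly level. Its log2 ratio was -0.03 in replicate 1 and -0.35 in replicate 2, and at a mean under 1 TPM it did not enter the fit.

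Neighboring genes give a view of the same loci that the choice of the RNAs did not use. *Rnu12* lies 308 bp from *Poldip3* and 3706 bp from *Cyb5r3* in the table's intervals. *Cyb5r3*, which encodes cytochrome b5 reductase 3, was at 237 and 246 TPM in cell bodies and 755 and 847 TPM in protrusions (log2 fold change 1.72, SE 0.11, adjusted p = 0.0230 from limma), so this neighbor lay on the opposite side from *Rnu12*. *Poldip3* was at 67.1 and 64.3 TPM against 73.1 and 71.0 TPM (log2 fold change 0.13, adjusted p = 0.452 from limma).

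*Rpph1* lies 174 bp from *Parp2*, which was at 47.3 and 53.5 TPM in cell bodies and 44.9 and 45.9 TPM in protrusions (log2 fold change -0.15, adjusted p = 0.459 from limma). A GENCODE transcript of *Ccnb1ip1* overlaps part of *Rpph1* on the same strand, but *Ccnb1ip1* had 0 to 4 reads in a library. *Rmrp* lies 305 bp from *Ccdc107*, of which a GENCODE transcript on the opposite strand overlaps it. *Ccdc107* was at 37.3 and 32.8 TPM against 25.2 and 20.8 TPM (log2 fold change -0.60, adjusted p = 0.0688 from limma, 0.0161 with the replicate block), far below the level of *Rmrp*. Libraries were stranded, but the sources used here do not state whether counting used strand, so reads of *Rmrp* and the overlapping end of *Ccdc107* may not be told apart.

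On its other side, 44709 bp away, *Tesk1*, which encodes a kinase of the actin regulator cofilin, rose from 7.86 and 5.39 TPM to 14.7 and 16.1 TPM (log2 fold change 1.18, SE 0.21, adjusted p = 0.0400 from limma). Around *Rnu11*, *Gmeb1* had a log2 fold change of 0.05 (adjusted p = 0.888 from limma) and *Taf12* of 0.13 (adjusted p = 0.474 from limma). *Rnu11* is overlapped on the opposite strand by the GENCODE RNA *Gm28872*, which is not in the table used here. *Frmd8* beside *Neat1* had a log2 fold change of 0.47 (adjusted p = 0.0978 from limma, 0.0370 with the replicate block).

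**Figure D5:**
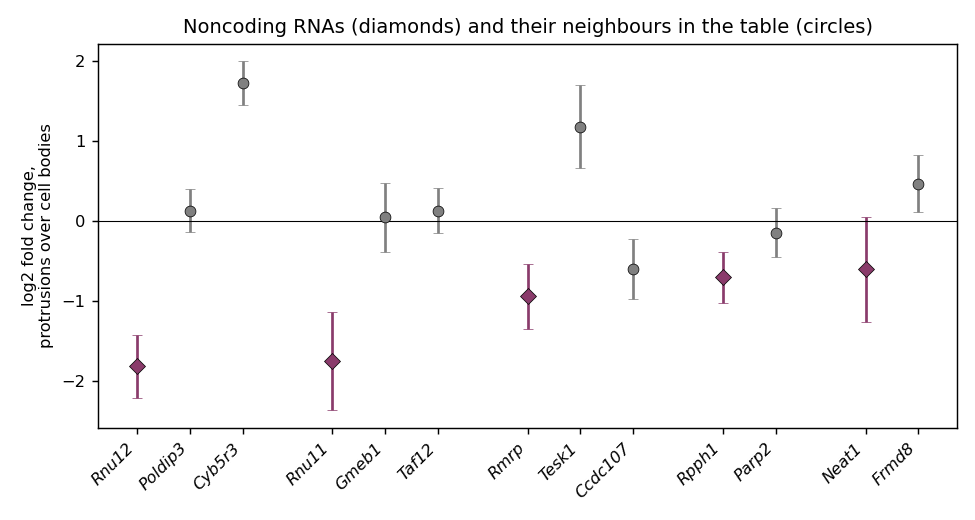
Protrusions against cell bodies, as a log2 fold change with its 95% confidence interval for 5 of the RNAs (diamonds) and tested genes of the table nearest to them (circles). *Cyb5r3* beside *Rnu12* is at 1.72 and *Tesk1* beside *Rmrp* at 1.18, while *Ccdc107* at -0.60 and *Parp2* at -0.15 are the neighbors below 0.

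Other noncoding RNAs were compared in the same fit. Of 111 tested snoRNA genes, whose RNAs work in the nucleolus and Cajal bodies, 44 were lower and 0 higher (71 and 2 with the replicate block), with a median log2 fold change of -0.85. Among 24 genes listed as other long noncoding RNAs 3 were lower and 1 was higher (10 and 1 with the replicate block). Their median was -0.56, and 21 of the 24 were below 0. *Gas5*, a snoRNA host transcript, was at 402 and 394 TPM in cell bodies and 226 and 193 TPM in protrusions (log2 fold change -0.93, adjusted p = 0.0342 from limma), and *Snhg1*, another such host, at 429 and 376 TPM against 267 and 227 TPM (log2 fold change -0.70, adjusted p = 0.0437 from limma). *Dancr* was at 23.4 and 29.8 TPM against 14.1 and 9.81 TPM (log2 fold change -1.13, adjusted p = 0.0445 from limma). The 1 that was higher was *Mir703*, a microRNA gene held in that list and not a long noncoding RNA. It was at 92.8 and 82.1 TPM against 182 and 178 TPM (log2 fold change 1.04, adjusted p = 0.0342 from limma).

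Host transcripts of other microRNAs were at lower TPM in protrusions without passing in the fit without the block. *Dnm3os*, which hosts miR-199a and miR-214, was at 30.5 and 37.9 TPM in cell bodies and 16.7 and 8.24 TPM in protrusions (log2 fold change -1.49, adjusted p = 0.0516 from limma, 0.00267 with the replicate block), close to *Mir17hg* in every library. *Dleu2*, which hosts miR-15a and miR-16, was at 8.57 and 9.33 TPM against 5.38 and 3.15 TPM (log2 fold change -1.03, adjusted p = 0.0682 from limma, 0.0122 with the replicate block). *Mirlet7bhg*, *Mir22hg* and *Mir143hg* had log2 fold changes of -0.96, -0.48 and -0.53 (adjusted p = 0.130, 0.220 and 0.546 from limma, with 0.0129 for *Mirlet7bhg* under the replicate block), and only *Mir143hg* overlapped between the fractions.

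Of 27 other small noncoding RNAs listed, 5 are in the table and 3 were tested. *Rnu73b* was at 63.9 and 57.6 TPM in cell bodies and 38.6 and 28.1 TPM in protrusions (log2 fold change -0.87, adjusted p = 0.0479 from limma). The snoRNA genes above were taken by the start of their symbols, so *Rnu73b* is not set apart from that class here. *Rn45s*, the precursor of ribosomal RNA and not itself small, was at 1808 and 2524 TPM against 1304 and 1013 TPM (log2 fold change -0.89, adjusted p = 0.0551 from limma, 0.00593 with the replicate block). The libraries were rRNA-depleted, and how far its reads come from ribosomal RNA that escaped depletion was not tested. *Vaultrc5*, the RNA of the cytoplasmic vault particle, overlapped between the fractions at 7.14 and 9.61 TPM against 6.66 and 9.36 TPM (log2 fold change -0.07, adjusted p = 0.880 from limma). The mRNAs used as evenly spread controls, *Ppia*, *Ywhaz*, *Rhoa* and *Arpc3*, had log2 fold changes of 0.16, 0.11, 0.27 and -0.08, and 0 of the 4 passed (limma), also at an unadjusted p under 0.05 and with voom.

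Small nuclear RNAs are made with the help of the Integrator complex, and of 14 tested mRNAs for it and for 3′ end processing 1 was lower and 0 were higher (2 and 1 with the replicate block), with a median of -0.17. It was *Ints2*, at 28.7 and 34.0 TPM in cell bodies and 19.6 and 16.1 TPM in protrusions (log2 fold change -0.80, SE 0.16, adjusted p = 0.0479 from limma). *Vwa9*, another Integrator subunit, was at 25.1 and 28.6 TPM against 19.4 and 17.2 TPM (log2 fold change -0.54, adjusted p = 0.0739 from limma, 0.0377 with the replicate block).

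The genes whose pattern over the 4 libraries was most like that of each RNA were found by Euclidean distance between log2(TPM + 0.5) values centered on each gene's mean, among 11399 genes. With 4 libraries such a match is a description. *Rnu11* was nearest to *Snord104* (distance 0.198) and *Snora68* (0.304), and *Rnu12* to *Snord42a* (0.115) and *Snord15b* (0.192), all snoRNA genes. *Mir17hg* was nearest to the microRNA gene *Mir6993* (0.0212) and to *Dnm3os* (0.123). *Rmrp* was nearest to *Mir3091* (0.0575) and *C230035I16Rik* (0.115), and *Terc* to the histone gene *Hist1h2af* (0.0913) and *5830415F09Rik* (0.102). The nearest genes of *Rpph1* were *Prss23* (0.0371) and *Leprel4* (0.0390), those of *Malat1* were *Kcnk5* (0.0608) and *Ugt1a7c* (0.0731), and those of *Neat1* were *B3gnt1* (0.0559) and *D930015E06Rik* (0.0675).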

How the data were processed

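RNA-seq of 2 cell body and 2 protrusion libraries was analysed from 1 deposited table of 16537 genes. It gives TPM per library, made by the authors on mm10, and the authors' log2 fold change, mean log2 CPM, likelihood ratio score and p-value from edgeR. Only the TPM and the mean log2 CPM were used. Per the labels, FastQC, STAR, featureCounts and edgeR were run, versions not given in the sources used here, while the study's methods name TopHat as the aligner. Groups came from the labels.

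Whole reads were recovered from ratios of a gene's TPM, scaled by the mean log2 CPM, and all 16537 genes came out whole within 0.01 reads. Dividing reads by TPM gave the feature lengths quoted. log2(TPM + 0.5) of the 11400 genes with a mean of at least 1 TPM entered limma (version 3.58.1 under R 4.3.3, trended prior variance), with Benjamini-Hochberg adjustment of p-values at a threshold of 0.05. Folds on this scale understate changes at low TPM. The scripts were tested on simulated data.

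The members, lists and tests were chosen with earlier results of these data known. Named were each member in the table, up to 4 genes per list (the 2 with the smallest p and others past the threshold), the miR-17-92 genes, the nearest genes (1 is not reported here), the 2 most alike genes and the controls. *Ago2*, *Son*, *Cdk9*, *Tert*, *Vaultrc5* and the host transcripts of other microRNAs were named after their values were seen. The 2 fractions of a replicate came from the same inserts, and their deviations from the group means correlated at 0.447. The fit used here holds the fraction only and leaves this pairing out. The replicate number was taken to pair the fractions only in the alternative with the replicate block. SEs and adjusted p-values rest on 2 residual and 3.81 prior degrees of freedom. The labels call the replicates biological. Alternatives covered the block, pseudocount, TPM minimum, scaling, voom on recovered reads and each library left out.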

Additional observations from a re-analysis of the deposited data

How the results depend on the processing

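All 8 tested RNAs stayed below 0 in each alternative but quantile normalization, where *Rpph1* came to 0 because it ranks first in every library and ranks are made equal. There *Rmrp* came to -0.25, against -0.94. Under that setting 3 of the 8 passed, against 5 in the fit used. With no minimum on TPM 0 of 9 passed, while 6 had an unadjusted p under 0.05. Leaving out 1 library gave 0 to 3. Leaving out a library put the log2 fold change of *Rnu12* between -1.98 and -1.66, of *Rnu11* between -2.13 and -1.38, of *Mir17hg* between -2.10 and -1.12, of *Malat1* between -0.997 and -0.40 (the latter without replicate 2 of cell bodies) and of *Neat1* between -0.95 and -0.25 (without replicates 1 and 2 of cell bodies). With 1 library left in a fraction, that library is assumed to vary like the others.

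Of all genes 341 were higher and 485 lower in protrusions. The replicate block gave 921 and 1513 and voom on recovered reads 775 and 889. No minimum on TPM gave 0 and 0 (limma, with 1468 and 2162 at an unadjusted p under 0.05). Leaving out 1 library gave 0 to 14 higher and 0 to 144 lower, the largest without replicate 1 of protrusions. A minimum of 5 TPM gave 801 lower. Centering on the 4 control mRNAs moved the median of all genes by -0.12 and gave 1132 lower, so 18.3% of calls were higher against 41.3%.

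Of the 116 partner mRNAs, 1 higher and 4 lower became 9 and 15 with the replicate block, 0 and 0 with no minimum on TPM (12 and 20 at an unadjusted p under 0.05), 4 and 8 at 5 TPM and 8 and 9 with voom. Quantile normalization gave 6 higher and centering on controls 13 lower. Each library left out gave 0 to 0 in both directions (limma, with 4 to 14 higher and 10 to 24 lower at an unadjusted p under 0.05).

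Besides *Pdgfra*, 13 other listed RNAs were past the threshold. Of these 13, 13 passed with the replicate block and 10 with voom, which lost *Mir19a*, *Mir19b-1* and *Rnu73b*. With a library left out 0 passed, except *Gas5* and *Mir19b-1* without replicate 1 of protrusions. Besides the calls given with it, the replicate block changed those of *Son*, *Malat1* and *Terc*, and no other of a gene given with its fold change.

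Of 2 settings chosen after seeing the data, voom with the replicate block gave 1832 and 2052 genes and 14 and 17 partner mRNAs, and TPM rescaled without the members gave 7 lower partner mRNAs. No *Terc* value was had at 5 TPM, and *Rnu11*, *Rnu12*, *Terc* and the miR-17-92 genes are limited by reads.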
